A study of Mus musculus with 6 samples.

Results

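The genes described here are Id1, Id2, Id3 and Id4, which encode the inhibitor of DNA binding proteins, and Atoh8, an atonal-related transcription factor gene. They were chosen by name as genes of the helix-loop-helix class that are direct targets of SMAD1, SMAD5 and SMAD9. Each had 1 row among the 37991 gene rows, so 5 genes of 37991 were described, and all 5 passed the filter on low counts that left 15227 genes for testing. The libraries came from mouse Müllerian duct mesenchyme at embryonic day 14.5, sorted for the yellow fluorescent protein (YFP), with 3 female and 3 male libraries. Every embryo carried 1 Cre allele at the Amhr2 locus (Amhr2Cre/+) and 1 YFP reporter allele (R26R YFP/+) on a mixed C57BL/6J x 129/SvEv background, and sex was the only labelled difference between the groups. YFP marks cells in which Cre was active or whose precursors had it, and each library pooled the sorted cells of 2 to 7 embryos. No embryos with Amh mutated or with both Amhr2 alleles mutated were analysed here, so the effect of AMH cannot be told apart from other differences between the sexes.

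Helix-loop-helix proteins act as dimers. Most have a basic stretch that binds DNA at E-box sequences, and the broadly expressed E proteins (Tcf3, Tcf4 and Tcf12) are the usual partners of tissue-specific factors. Id proteins lack the basic stretch, pair with E proteins and keep them off DNA. Id genes are widely used as readouts of bone morphogenetic protein (BMP) signalling, in which receptors activate SMAD1, SMAD5 and SMAD9. Anti-Müllerian hormone (AMH), which the fetal testis secretes and which makes the male duct regress, uses the same SMADs through its receptor AMHR2 in the duct mesenchyme.

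Libraries held 22511872 to 24749859 counts in genes. Levels are given as CPM, which are counts scaled to a common library total with trimmed mean of M-values (TMM) factors. The 10 mesenchyme markers examined were detected, with summed levels of 6110 to 9430 CPM in female and 7883 to 9319 CPM in male libraries. Counts outside annotated genes made up 17.5% and 18.2% of uniquely placed counts in female and male replicate 1, against 3.53% to 8.65% in the other libraries. The libraries also differed along transcript GC content and length. A trend on these properties accounted for a share (R squared over genes) of 0.104 to 0.461 of a library's deviations from the gene means.

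Of the 5 genes, Id4 was the one that passed the test between the sexes, higher in male mesenchyme. Id2, Id3 and Atoh8 had higher means in male and Id1 a lower mean, and these 4 did not pass. Of all genes tested, 0.841% rose in male, 0.387% fell and 1.23% passed in either direction (edgeR quasi-likelihood test, adjusted p threshold 0.05). An unadjusted p under 0.05 was found for 2 of the 5 genes, Id4 and Atoh8, and for 9.18% of all genes. Male libraries lay above every female library for 2 of the 5, Id2 and Id4, which held for 6.47% of all genes, while none of the 5 lay below in every male library, against 7.27% of all genes. DESeq2 called 1 of the 5, Id4, and 2.92% of all genes higher in male. In these bulk samples fewer cells of a type and less RNA per cell cannot be told apart.

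**Figure D1:**
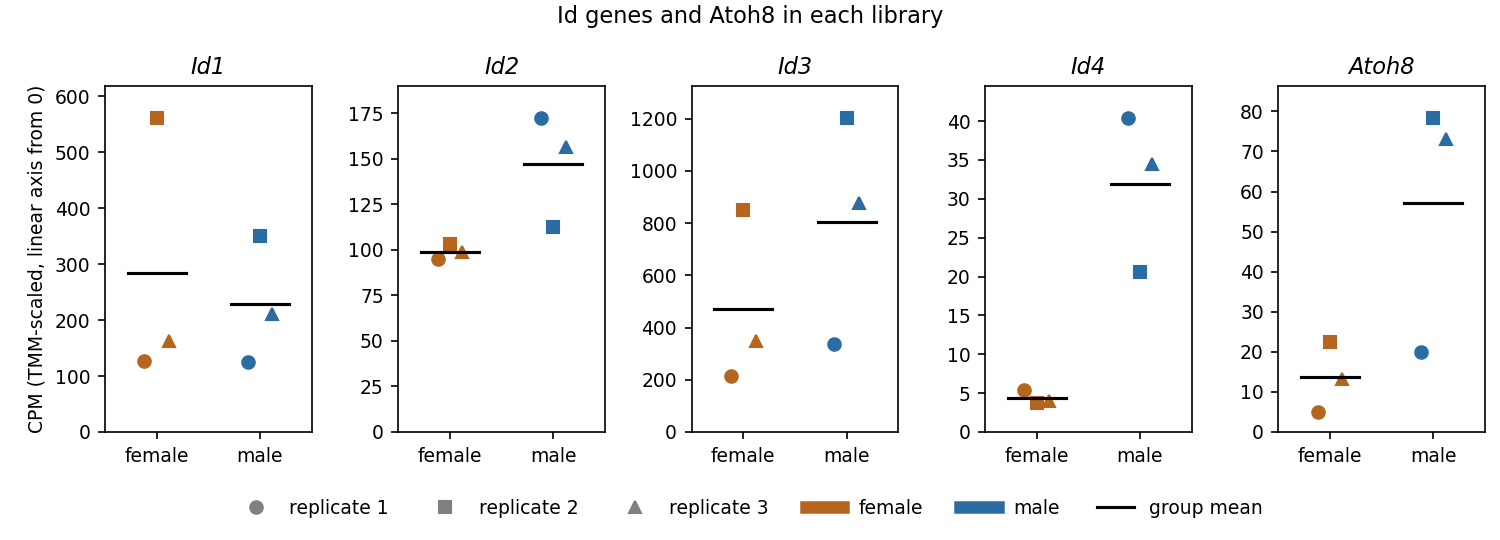
CPM of Id1, Id2, Id3, Id4 and Atoh8 in each library, on linear axes that start at 0. Points are libraries, with the symbol giving the replicate number, and bars are the means of 3 libraries per sex. The male libraries of Id4 sit between 20.6 and 40.4 CPM, all above the female libraries at 3.74 to 5.40 CPM.

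Id4 (ENSMUSG00000021379, chromosome 13, plus strand) is the family member with a part in the differentiation of neural and bone-forming cells. It stood at 5.40, 3.74 and 4.001 CPM in female replicates 1 to 3 and at 40.4, 20.6 and 34.5 CPM in male replicates 1 to 3. The lowest male library was 3.82 times the highest female library, so the groups did not overlap. Mean levels were 4.38 ± 0.894 CPM for female and 31.8 ± 10.2 CPM for male libraries (SD, n = 3 each), which rested on 323 female and 2293 male counts. The fold change was 7.26, a log2 fold change of 2.86 (SE 0.41; adjusted p = 0.0308 by edgeR). Over 20 other settings the log2 fold change lay between 2.65 and 3.09. The call did not hold when female replicate 1, 2 or 3 was left out (edgeR adjusted p = 0.104, 0.0987 and 0.258), without male replicate 2 or 3 (0.0631 and 0.187) and with library size alone in place of TMM (0.0519). It was also lost without both libraries of replicate 2 (0.133) or replicate 3 (0.99998). The reference annotation places 2 transcripts on the opposite strand over exons of Id4, A330033J07Rik and Gm49291. The kit does not mark strand and neither transcript has a row in the files, so their reads cannot be told apart from those of Id4.

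Atoh8 (ENSMUSG00000037621, chromosome 6, minus strand), a transcription factor with roles in endothelial, muscle and bone development, had the next largest difference. It stood at 4.96, 22.5 and 13.3 CPM in female replicates 1 to 3 and at 19.8, 78.4 and 73.1 CPM in male replicates 1 to 3. Male replicates 2 and 3 were above every female library, whereas male replicate 1 was below female replicate 2. The means were 13.6 ± 8.78 CPM for female and 57.1 ± 32.4 CPM for male libraries (SD, n = 3 each). The log2 fold change of 2.07 (SE 0.73) did not pass (edgeR adjusted p = 0.383; 0.0589 by DESeq2). Libraries of 1 sex differed by up to 4.54-fold, close to the 4.202-fold difference between the sexes.

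Part of that spread followed the GC content and length trend. The longest Atoh8 transcript is 62.2% G and C, above 98.3% of the tested genes, and the trend put Atoh8 0.82 and 0.74 log2 units below its mean in female and male replicate 1 and 0.55 and 0.68 above it in replicate 2. With the trend as an offset in the fit, Atoh8 passed, with a log2 fold change of 1.83 (SE 0.30; adjusted p = 0.0176 by edgeR), in a setting where 3.02% of all genes rose. Its log2 levels after removal of the trend were 3.15 to 3.95 in female and 5.05 to 5.78 in male libraries and did not overlap. As counted, all male libraries lay above all female libraries for 6.47% of all genes, and that share was not computed after removal. The sexes of Id2 and Id4 also did not overlap after removal, and those of Id1 and Id3 did. Id4 passed in the fit with the offset too, at 2.999 (SE 0.31, edgeR adjusted p = 0.00328). Atoh8 also passed without both libraries of replicate 1 (edgeR log2 fold change 2.08, adjusted p = 0.0358).

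**Figure D2:**
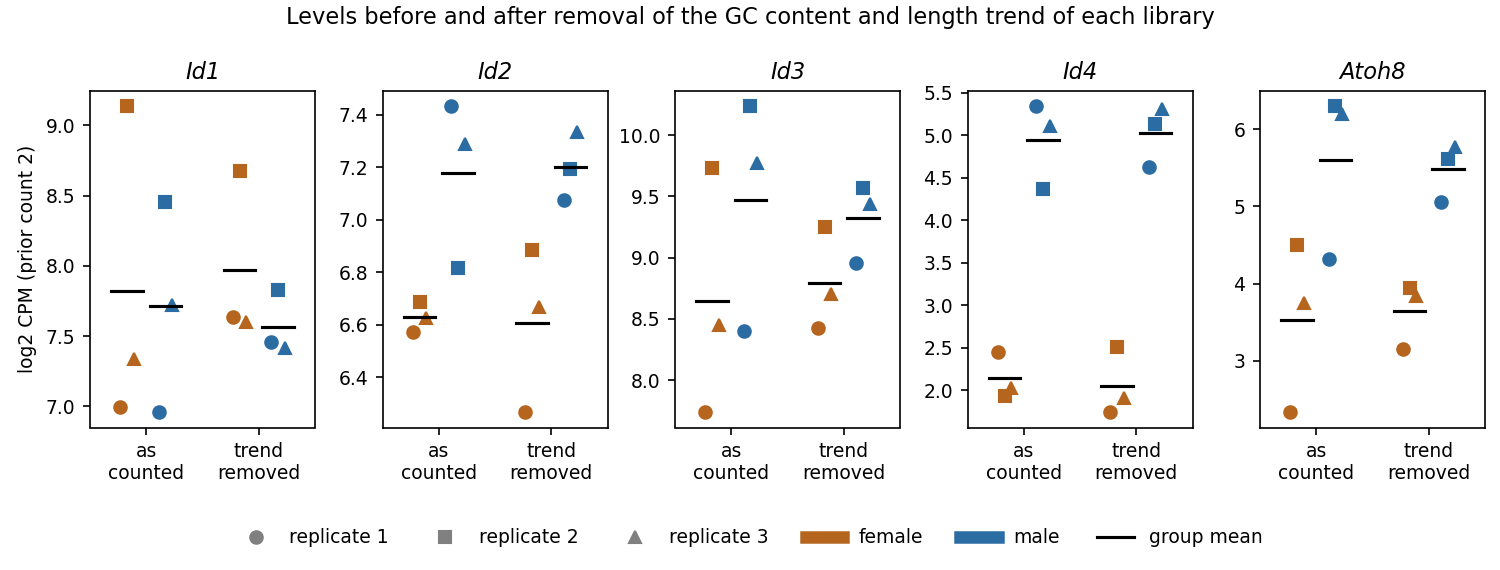
Log2 CPM (prior count 2) of the 5 genes in each library as counted and after removal of each library's GC content and length trend. Points are libraries, with the symbol giving the replicate number, bars are group means, and each panel has its own axis. Female and male libraries of Atoh8 overlap as counted and lie at 3.15 to 3.95 and 5.05 to 5.78 after removal.

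Id2 (ENSMUSG00000020644, chromosome 12, minus strand), a partner of E proteins known from lymphoid and mammary development, was the steadiest member among females. Its female libraries stood at 95.1, 103.1 and 98.7 CPM and its male libraries at 172.6, 112.8 and 156.4 CPM. All male libraries were above the female ones, the lowest by 1.09 times the highest female library. The log2 fold change was 0.57 (SE 0.31), a 1.49-fold difference, and did not pass (edgeR adjusted p = 0.795; 0.222 with the GC and length offset).

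Id3 (ENSMUSG00000007872, chromosome 4) and Id1 (ENSMUSG00000042745, chromosome 2), both on the plus strand, are the members most often used as rapid BMP readouts. Id3 stood at 213.4, 852.1 and 350.5 CPM for female and 338.1, 1204 and 876.5 CPM for male replicates 1 to 3. The sexes overlapped, since male replicate 1 was below female replicates 2 and 3. Its log2 fold change was 0.77 (SE 0.68, edgeR adjusted p = 0.99997), and 0.51 (SE 0.29, adjusted p = 0.503) with the GC and length offset. Id1 stood at 127.4, 561.6 and 161.9 CPM for female and 124.3, 349.9 and 211.4 CPM for male replicates 1 to 3. Its highest library was female replicate 2 and its lowest was male replicate 1, so the male libraries lay within or just below the female range. The log2 fold change of Id1 was −0.31 (SE 0.68, edgeR adjusted p = 0.99997). Without female replicate 2 the Id1 value turned to 0.67 (SE 0.55), and without both libraries of replicate 2 to 0.21 (SE 0.50), so its direction rested on that library.

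Within each sex Id1, Id3 and Atoh8 were highest in replicate 2 and lowest in replicate 1, whereas Id4 was highest in replicate 1 and lowest in replicate 2. Their longest transcripts are 54.7%, 55.6% and 62.2% G and C for the first 3 and 42.6% for Id4, above 13.9% of the tested genes. Removal of the GC and length trend lowered the within-sex SD of log2 levels from 0.97 to 0.46 for Id1, from 0.98 to 0.37 for Id3 and from 1.11 to 0.41 for Atoh8. For Id2 and Id4 this SD, pooled over the sexes, changed little, from 0.23 to 0.24 and from 0.41 to 0.38. Female Id2 levels widened, at 6.57 to 6.69 log2 units as counted and 6.27 to 6.89 after removal. Male Id2 levels narrowed, at 6.82 to 7.43 as counted and 7.08 to 7.33 after removal. Replicate 1 of Id4, the highest as counted in each sex, became the lowest, at 1.74 in female and 4.63 in male. After removal, Id1 in female replicate 2 stood at 8.68 log2 units, still above the other 5 libraries at 7.41 to 7.83.

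**Figure D3:**
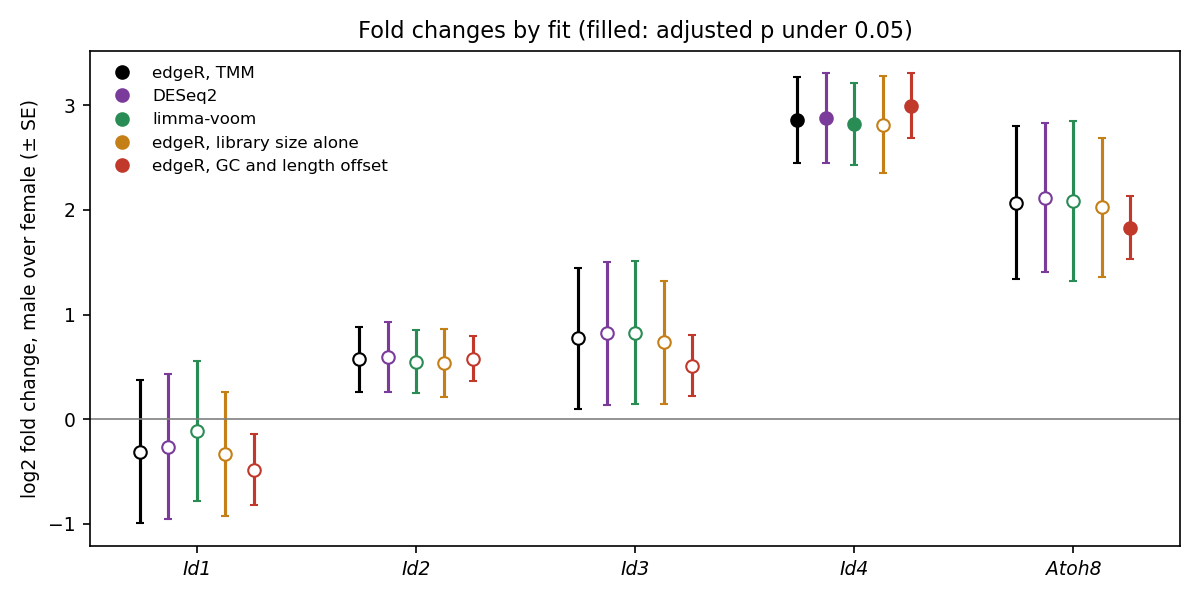
Log2 fold change of male over female for the 5 genes in 5 fits, with the standard error. Filled points have an adjusted p under 0.05. Id4 lies between 2.82 and 2.999 in the 5 fits and is filled in all but the fit by library size alone, and Atoh8 is filled with the GC and length offset only.

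Immediate early genes respond within minutes to serum or cell dissociation. Replicate 2 held the highest level in both sexes for 14 of the 16 tested genes of that list, against 35.7% of all tested genes. That share was not matched for GC content or length, and the GC and length trend also raised Id1, Id3 and Atoh8 in replicate 2 of both sexes. Whether the trend accounts for the pattern of the list was not tested. Ier2 stood at 209.7, 1023 and 356.7 CPM for female and 276.2, 1201 and 603.6 CPM for male replicates 1 to 3, and Junb at 59.3, 305.4 and 109.1 CPM and at 125.1, 514.4 and 233.4 CPM (both chosen after their values were seen). Junb is also on the list of BMP and SMAD induced genes. None of the 16 passed by edgeR or DESeq2, and 2 had an unadjusted p under 0.05. Their median log2 fold change was 0.61, against −0.006 over all genes. The smallest p was that of Klf4, with a log2 fold change of 1.28 (SE 0.48; adjusted p = 0.451 by edgeR). Their part in the levels of Id1 and Id3 was not tested.

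Levels per kilobase of annotated exons allowed the members to be set against each other. Mean CPM per kilobase in female libraries was 263.5 ± 188 for Id3, 244.5 ± 208 for Id1, 40.6 ± 1.63 for Id2, 5.42 ± 3.50 for Atoh8 and 1.14 ± 0.232 for Id4 (SD, n = 3 each). In male libraries the order was the same, at 450.1 ± 244 for Id3, 197.0 ± 98.1 for Id1, 60.4 ± 12.7 for Id2, 22.8 ± 12.9 for Atoh8 and 8.27 ± 2.64 for Id4. The ranges over libraries of the neighbours Id3 and Id1 overlapped in either sex, but both were measured in the same libraries. Id3 was above Id1 in each male library, at 188.8 and 107.2, 672.1 and 301.7, and 489.4 and 182.3 in replicates 1 to 3. In female libraries Id3 was above Id1 in replicates 1 and 3, and Id1 was above Id3 in replicate 2, at 484.2 and 475.8. The ranges of Atoh8 and Id4 also overlapped in male libraries, where Id4 exceeded Atoh8 in replicate 1, at 10.5 and 7.92. Id2 stood below Id1 and Id3 and above Atoh8 and Id4 in all 6 libraries. Id4 made up 0.0968% to 0.521% of the summed Id1 to Id4 level per kilobase in female and 0.522% to 2.78% in male libraries. So even at its highest Id4 was a small share of the family's transcripts, and Id1 with Id3 made up most of it.

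**Figure D4:**
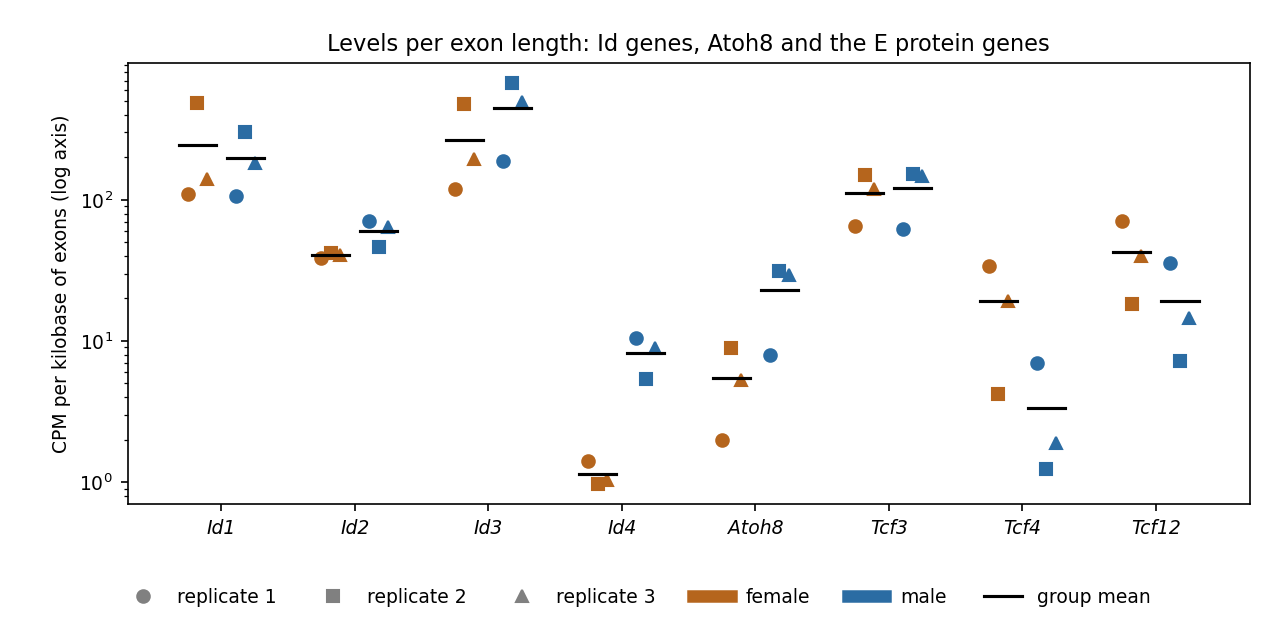
CPM per kilobase of annotated exons, on a log axis, for the 5 genes and the E protein genes Tcf3, Tcf4 and Tcf12. Points are libraries, with the symbol giving the replicate number, and bars are group means. Among the 5 genes Id3 and Id1 have the highest means and Id4 the lowest, at 1.14 in female and 8.27 in male libraries. The male mean of Tcf4, at 3.36, is below that of Id4 after division by 27.4 kilobases of exons for Tcf4 and 3.85 for Id4. Undivided, the male means are 92.1 CPM for Tcf4 and 31.8 CPM for Id4.

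The 250 bases before the RefSeq start are shown for Id2 and Id4, whose sexes did not overlap, and for Atoh8, whose sexes did not overlap once the GC trend was removed. The RefSeq promoter table matched 4 of the 5 genes, and its build is GRCm38.p6, not the mm9 of the counts. Capitals mark GGCGCC, the core of BMP response elements, and GTCT, which SMADs bind, on either strand (AGAC where GTCT lies on the other strand). The windows are Id2 at chr12:25096093-25096342 (minus strand), Id4 at chr13:48260866-48261115 (plus strand) and Atoh8 at chr6:72235578-72235827 (minus strand).
Id2: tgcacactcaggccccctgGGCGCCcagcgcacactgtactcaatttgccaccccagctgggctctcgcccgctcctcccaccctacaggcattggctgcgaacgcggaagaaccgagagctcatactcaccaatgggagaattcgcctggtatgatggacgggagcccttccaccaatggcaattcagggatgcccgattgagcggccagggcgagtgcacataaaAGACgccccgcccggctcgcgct
Id4: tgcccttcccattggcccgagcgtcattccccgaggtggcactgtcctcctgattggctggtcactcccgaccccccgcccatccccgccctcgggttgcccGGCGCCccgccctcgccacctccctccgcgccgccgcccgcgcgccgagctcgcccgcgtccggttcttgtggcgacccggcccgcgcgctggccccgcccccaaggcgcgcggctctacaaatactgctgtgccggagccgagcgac
Atoh8: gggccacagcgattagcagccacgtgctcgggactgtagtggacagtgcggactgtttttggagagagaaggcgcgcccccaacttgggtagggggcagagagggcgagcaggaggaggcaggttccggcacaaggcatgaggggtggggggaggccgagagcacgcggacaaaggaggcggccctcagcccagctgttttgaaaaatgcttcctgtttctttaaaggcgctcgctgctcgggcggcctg
GGCGCC occurred 1 time in the window of Id2, 231 bases before the start, and 1 time in that of Id4, 148 bases before it, and did not occur in those of Id3 and Atoh8. It was found in 9.59% of 32851 windows of the same length. GTCT occurred 1 time for Id2 and 2 times for Id3 and did not occur for Id4 and Atoh8, against 82.9% of windows with at least 1. GGCGCC followed by GTCT after 5 bases of any kind occurred in none of the 4 windows and in 0.07% of all. The E-box CANNTG occurred 1 time for Id2 and 2 times for Atoh8, and in 66.2% of windows. The Id4 window was 75.6% G and C, above 96.4% of windows.

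The E protein genes, whose products Id proteins bind, had a lower mean in male mesenchyme for Tcf4 and Tcf12 and a slightly higher one for Tcf3, and none passed. Tcf4 stood at 931.0, 115.2 and 523.1 CPM for female and 190.8, 33.9 and 51.6 CPM for male replicates 1 to 3, with a log2 fold change of −2.51 (SE 0.96; adjusted p = 0.460 by edgeR). Male replicate 1 was above female replicate 2, so the sexes overlapped. With the GC and length offset Tcf4 was lower past the threshold, at −2.18 (SE 0.25, edgeR adjusted p = 0.00439). Tcf12 stood at 1101, 281.9 and 621.5 CPM for female and 551.8, 112.3 and 226.5 CPM for male libraries and had −1.17 (SE 0.73), or −0.97 (SE 0.25, adjusted p = 0.0777) with the offset. Tcf3, at 449.7 ± 171 CPM for female and 487.5 ± 204 CPM for male libraries (SD, n = 3 each), had 0.12 (SE 0.50), and −0.12 (SE 0.19) with the offset, so its sign differed between fits. Of the 3 genes, 1 had an unadjusted p under 0.05 and none passed by DESeq2. Per kilobase, the summed Id1 to Id4 level was 1.58, 5.86 and 2.11 times the summed E protein level in female replicates 1 to 3. In male replicates 1 to 3 it was 3.59, 6.36 and 4.56 times, and the sexes overlapped. The ratios were taken with the GC and length trend left in, and its part in them was not tested. They rest on the length of all annotated exons of each gene, 27.4 kilobases for Tcf4 and 15.5 for Tcf12. Other lengths were not tried for the E proteins.

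Other genes commonly induced by BMP and SMAD signalling included 6 that rose in male mesenchyme. Of 18 tested genes of that list none fell and 12 did not pass, with a median log2 fold change of 2.52 against −0.006 over all genes. All male libraries lay above all female libraries in 14 of the 18, which held for 6.47% of all genes. The list was chosen with earlier results of these data known, so its contrast with all genes is a description and not an independent test. Msx2 and Dlx5, homeobox genes of limb and craniofacial bone, rose by 6.47 (SE 0.46) and 6.99 (SE 0.54) on the log2 scale (edgeR adjusted p = 0.0091 and 0.012). Hey1, a repressor of the same helix-loop-helix class, rose from 3.47 ± 0.782 to 21.2 ± 3.08 CPM and Bmper, a secreted BMP modulator, from 3.56 ± 0.359 to 20.0 ± 3.54 CPM (SD, n = 3 each). Smad9 and Gata3 complete the 6, at log2 fold changes of 3.7996 and 2.81. The feedback inhibitor Smad6 had 3.51 (SE 0.60, edgeR adjusted p = 0.0556) and Bambi, a decoy receptor, 2.43 (SE 0.59, adjusted p = 0.146), both chosen after their values were seen. In this order Id4 fell between Msx1 at 3.05 and Gata3, Atoh8 below Bambi, and Id2, Id3 and Id1 among the genes with the smallest differences. With the GC and length offset 11 of the 18 rose, and 13 by DESeq2. The count was 2, 1 and 0 without female replicate 1, 2 or 3, and 1 and 0 without male replicate 2 or 3.

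**Figure D5:**
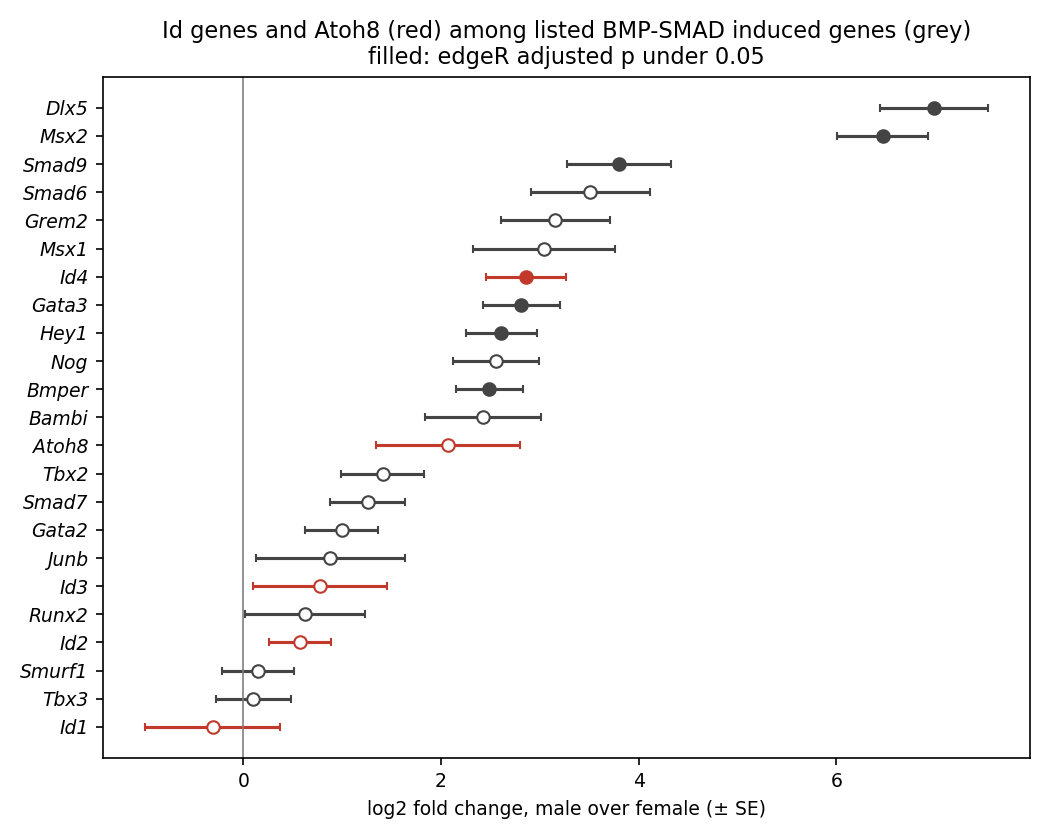
Log2 fold change of male over female with its standard error for the 5 genes (red) and 18 listed BMP and SMAD induced genes (grey), ordered by value. Filled points have an edgeR adjusted p under 0.05. Id4 at 2.86 is the filled red point, and Id1 at −0.31 is lowest.

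Of the SMADs that act upstream of the Id genes, Smad9 rose, at 3.7996 (edgeR adjusted p = 0.0308). It was counted above among the induced genes and was not on the list of receptors and SMADs. Of the 12 tested genes on that list none passed by edgeR, 4 had an unadjusted p under 0.05 and 2 passed by DESeq2. The list, without Smad9, had a median log2 fold change of −0.08. The smallest p of the 12 was that of Acvr1, a type I receptor used by AMH and BMPs. Acvr1 stood at 57.3, 64.8 and 65.5 CPM for female and 157.7, 143.0 and 162.8 CPM for male libraries, with no overlap, and had a log2 fold change of 1.30 (SE 0.29; adjusted p = 0.107 by edgeR). With the GC and length offset 5 of the 12 passed, 2 higher and 3 lower in male, against 460 and 445 of 15227 genes. Acvr1 was among those higher (edgeR adjusted p = 0.00607). Bmpr1b and Smad1 were lower in every male than in every female library, which held for 7.27% of all genes, and neither passed without the offset. Amhr2, whose locus carries the Cre, had −0.65 (SE 0.53) and Sp7, which encodes the factor Osterix in the series title, rose with 2.97 (SE 0.34, edgeR adjusted p = 0.018). Among 9 tested ligand genes Amh rose, from 0.653 to 17.2 CPM, Bmp7 fell, from 120.3 to 16.99 CPM, and 7 did not pass. Amh is a Sertoli cell gene.

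Markers of other cell types that also use Id genes were measured beside these results. The summed Sertoli cell markers stood at 35.6 to 52.1 CPM in female and 83.8 to 131.7 CPM in male libraries, and 3 of 7 tested rose (Amh, Cst9 and Sox9). Without Sox9, the most abundant of the list in male, the sums were 27.7 to 45.3 CPM and 39.9 to 72.3 CPM, and the sexes overlapped. Cyp26b1 was lower in every male than in every female library, with a log2 fold change of −0.56 that did not pass (edgeR adjusted p = 0.787). Their part in the higher Id4 and Atoh8 was not tested. Endothelial cells are rich in Id1, Id3 and Atoh8 RNA in many tissues. The 10 endothelium markers summed to 72.3 to 104.0 CPM in female and 171.5 to 335.3 CPM in male libraries, most of it Kdr. Without Kdr they summed to 17.97 to 31.9 and 16.4 to 38.5 CPM, and the defining markers Pecam1 and Cdh5 stood at no more than 1.72 and 2.52 CPM in any library. None of the 35 tested markers of mesenchyme, endothelium, mesothelium, macrophages and erythroid cells passed by edgeR, 8 had an unadjusted p under 0.05 and 3 passed by DESeq2. Of these 8, 4 were among the 7 tested mesothelium markers (Lrrn4, Upk1b, Bnc1 and Podxl), and these 4 were lower in every male than in every female library, against 7.27% of all genes. The mesothelium list had a median log2 fold change of −0.83 and summed to 637.7 to 1138 CPM in female and 433.9 to 742.8 CPM in male libraries. Of the 7 pregranulosa markers 4 were lower in every male than in every female library, with a list median of −1.10. Wnt4, the most abundant, was higher in every male library, with a log2 fold change of 1.96 that did not pass (edgeR adjusted p = 0.127). The list summed to 111.1 to 208.9 CPM in female and 275.1 to 552.6 CPM in male libraries. Without Wnt4 the sums were 28.6 to 57.7 CPM and 13.9 to 21.5 CPM. The part of either list in the levels of the 5 genes was not tested. The duct epithelium gene Epcam and the pregranulosa gene Irx5 fell, with log2 fold changes of −2.41 and −2.71, and the neuron gene Stmn2 rose, with 2.50, as the 1 gene past the threshold in each of their lists of 8, 7 and 5 tested genes.

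The genes whose log2 CPM most resembled each member over the 6 libraries are given as a description. For Id4 they were Ccdc80, P4ha3 and Cadps, with Pearson's r of 0.999, 0.998 and 0.998. Ccdc80 stood at 66.9 to 87.1 CPM in female and 212.0 to 344.6 CPM in male libraries. For Atoh8 they were Ak1, Rtn4rl1 and Dhrs3 (0.999, 0.998 and 0.998). For Id3 they were Nat9, Zfp467 and Clic1 (0.9995, 0.999 and 0.999), for Id1 Chchd1, Glrx3 and 1500009L16Rik (0.9995, 0.998 and 0.996) and for Id2 Gem, Insig1 and Gm4285 (0.992, 0.984 and 0.980). All share the same 6 libraries and their GC trend. Of 13339 genes compared, 2981 had r over 0.9 with Id3, 1190 with Id1, 909 with Atoh8, 345 with Id4 and 76 with Id2, so such likeness was common for the members that followed the trend.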

How the data were processed

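RNA was sequenced from 3 female and 3 male libraries made with the TruSeq v2 kit, per the labels' protocols. The authors deposited raw counts per Ensembl gene. The submitters' processing notes name TopHat, HTSeq, DESeq and the mouse build mm9. Which annotation and strand setting were used is not given in the sources used here. Library sizes excluded the summary lines that name no gene, of which reads outside genes made 3.53% to 18.2% and ambiguous reads 6.51% to 10.03% of uniquely placed counts. Of 37991 identifiers, 32919 had a symbol. Exon lengths, GC content and overlaps came from GENCODE M21 (GRCm38), and promoters from RefSeq.

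Genes were kept by filterByExpr, given TMM factors and compared by a two-sided robust quasi-likelihood test in edgeR 4.0.16 (R 4.3.3) with sex alone in the design. P-values were Benjamini-Hochberg adjusted over 15227 genes, and an SE is the absolute log2 fold change divided by the root of F. The script was tested on simulated data, with pass conditions set only for a small spread between libraries. Other settings used DESeq2 1.42.0, limma 3.58.1, other scalings and filters, a replicate block, fewer libraries, and an offset of splines (5 degrees of freedom each) of GC content and length, which 96.4% of genes had. Within each sex, counts of libraries differed far beyond sampling noise. Nothing says whether replicates shared a litter, so p-values measure the spread between these pools.

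Members and lists were chosen with earlier results of these data known. Named genes are the members, the E proteins, up to 4 genes per list past the threshold with the smallest adjusted p (or the 1 with the smallest p), all of 2 short lists, and the 3 genes most like each member at a mean of 1 CPM or more.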

Additional observations from a re-analysis of the deposited data

Results flagged for a closer look

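Counts outside annotated genes were used in no comparison, and every library held some. Their share of uniquely placed counts was 18.2% in the highest library, male replicate 1, and 3.53% in the lowest, female replicate 2.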

How the results depend on the processing

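The 20 settings kept the direction of Id2, Id3, Id4 and Atoh8, and Id1 turned to 0.67 without female replicate 2 and 0.21 without replicate 2 of both sexes. Leaving out libraries gave log2 fold changes of −0.77 to 0.67 for Id1, 0.41 to 0.75 for Id2, 0.36 to 1.52 for Id3, 2.65 to 3.09 for Id4 and 1.67 to 2.65 for Atoh8. Id4 no longer passed by library size alone (2.82) or without replicate 2 (2.98) or 3 (2.72) of both sexes. Atoh8 passed with the GC and length offset (1.83) and without replicate 1 of both sexes (2.08). The count of the 5 genes called was 1, and 0 by library size alone, at a threshold of 0.01 and without replicate 2 or 3 of both sexes, 2 with the offset and without replicate 1 of both sexes, and 0 to 1 over single libraries left out.

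Over all genes 187 passed, against 771 by DESeq2, 905 with the offset (460 higher, 445 lower, where edgeR gave 128 and 59), 386 at a threshold of 0.1, 4 at 0.01, 354 without replicate 1 of both sexes and 0 to 173 over single libraries left out. DESeq2 gave 444 higher and 327 lower. No gene passed edgeR without female replicate 3, male replicate 3, or replicate 2 or 3 of both sexes, where 884, 938, 1103 and 455 had an unadjusted p under 0.05. The BMP and SMAD induced count was 13 by DESeq2, 11 with the offset and without replicate 1 of both sexes, 0 without replicate 2 or 3 of both sexes, and 0 to 8 over single libraries left out. By DESeq2 and the offset the receptors and SMADs gave 2 and 5, mesenchyme markers 1 and 4, endothelium 2 and 2, duct epithelium 2 and 2 and pregranulosa 4 and 4. The offset gave 1 E protein, 2 class II factors, 2 HES and HEY genes, 1 CDK inhibitor, 1 mesothelium and 0 neuron markers. Over the longest transcript Id2 stood at 50.3 (female) and 74.8 (male) CPM per kilobase.

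Same-numbered libraries correlated in their deviations from the group means at 0.93, 0.85 and −0.07 for replicates 1 to 3, so the numbers were not treated as pairs. Replicates 1 and 2 correlated best with their own number, female 3 with male 1 and male 3 with female 2. With a replicate block 4164 genes passed (4418 with the offset too), 13.1% and 13.6% of all genes higher in male. Of the 5 genes 4 were called in both blocked fits, Id2 at 0.55 and 0.60, Id3 at 0.83 and 0.53, Atoh8 at 2.09 and 1.84 without and with the offset, and Id4. The blocked count was 16 of the BMP and SMAD induced genes in both fits, 7 receptors and SMADs, 6 ligands, 2 E proteins, 6 class II factors, 3 HES and HEY genes, 3 CDK inhibitors, 12 immediate early genes, 6 mesenchyme, 4 endothelium, 3 duct epithelium, 4 mesothelium, 6 Sertoli, 5 pregranulosa, 1 macrophage and 3 neuron markers. The causes of these changes were not tested. Settings for the list counts other than DESeq2 and the block were chosen after seeing the data. Depth limited Id4 most, with 76 to 147 counts in each female library.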

Other observations

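Of 34 tissue-specific (class II) genes with a row, 9 passed the filter and 1 rose, Hand1, a cardiac and limb mesenchyme factor. Hand1 held 0 to 0.0367 CPM in female and 2.08 to 4.97 CPM in male libraries. Twist1, chosen after its values were seen, stood at 38.7 to 48.5 CPM in female and 17.7 to 30.4 CPM in male libraries with no overlap and did not pass (log2 fold change −0.98, SE 0.34, edgeR adjusted p = 0.374). Among 7 tested HES, HEY and related repressor genes Hey1 rose, with a log2 fold change of 2.61 (SE 0.36, adjusted p = 0.0281), and 6 did not pass. The atonal relatives of Atoh8 were near absent, since Atoh1 had no counts and Atoh7 a male mean of 0.033 CPM.

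CDK inhibitor genes that E proteins can activate did not pass. Of 3 tested, 1, Cdkn2b, had an unadjusted p under 0.05 (edgeR) and none passed by DESeq2. Cdkn1a stood at 8.85, 35.6 and 14.5 CPM for female and 2.18, 9.69 and 7.08 CPM for male replicates 1 to 3, with a log2 fold change of −1.64 (SE 0.73; adjusted p = 0.604 by edgeR), and fell once GC content and length were offset (−1.83, edgeR adjusted p = 0.047). Cdkn1c, at 669.1 ± 386 and 1406 ± 703 CPM (SD, n = 3 each), had 1.07 (SE 0.65). Cdkn2b stood at no more than 1.03 CPM in any library, and Cdkn2a at no more than 0.0843 CPM.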
